A study of Rattus norvegicus with 8 samples.

Results

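The endothelin and natriuretic peptide genes are 8 genes of a pair of opposing hormone systems of the kidney (Edn1, Edn3, Ednra, Ednrb, Ece1, Npr1, Npr2 and Npr3), taken from the array by gene symbol. The array annotation used here names 5 of the 8 alone on a probe set, a group of short oligonucleotides that measures 1 transcript. These are Edn1, Ece1, Npr1, Npr2 and Npr3, with 1 probe set each, out of 14217 genes and 31042 probe sets in all. Edn3, Ednra and Ednrb were not analysed here. The members were read on Affymetrix rat genome arrays hybridized with biotin-labeled cRNA made from RNA of isolated glomeruli, at 1 array for each of 8 rats. The 4 groups of 2 rats were Dahl salt-sensitive rats (Dahl) aged 6 weeks, Dahl rats aged 4 weeks, spontaneously hypertensive rats (SHR) aged 6 weeks and SHR rats aged 4 weeks. All rats were male and were kept on a low-salt diet. The study describes Dahl rats as spontaneously proteinuric from 6 weeks of age, so not yet at 4 weeks, and SHR rats as free of proteinuria. It describes both strains as becoming hypertensive only at ages later than those sampled here. Glomeruli came from the left kidney, collected by magnetic retraction. All values are log2 intensities as deposited, and a strain difference is Dahl minus SHR.

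Endothelin is made as a long precursor, cut to an inactive intermediate and then cleaved to the active peptide by endothelin-converting enzyme, which Ece1 encodes. The active peptide is among the strongest vasoconstrictors of mammals, and in the glomerulus it acts on mesangial cells, arterioles, endothelium and podocytes. Natriuretic peptides oppose it. Npr1 and Npr2 encode receptors with a guanylate cyclase domain that make cyclic GMP on binding atrial or C-type natriuretic peptide, whereas Npr3 encodes the clearance receptor, which lacks that domain and takes natriuretic peptides up for degradation.

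The promoters of the ligand Edn1 and of Ece1 and Npr3, the 2 members that passed the strain test, are shown so that their elements can be compared. Of the 5 measured members, 4 had an entry in the RefSeq promoter table of the build GRCr8. Each line is the 250 bases before the annotated gene start, read 5′ to 3′ on the gene's own strand, and capitals mark matches to a motif on either strand. The core promoter motifs searched were the TATA box, TATAAA, the CCAAT box, which is named for its letters, and the GC box, read as GGGCGG in the search. For the factor AP-1 the letters were TGACTCA, with the next-to-last base also allowed to be an adenine. For GATA factors they were AGATAA, with thymine also allowed as the opening base and guanine as the closing one.
Edn1 (chr17:22666688-22666937, minus strand): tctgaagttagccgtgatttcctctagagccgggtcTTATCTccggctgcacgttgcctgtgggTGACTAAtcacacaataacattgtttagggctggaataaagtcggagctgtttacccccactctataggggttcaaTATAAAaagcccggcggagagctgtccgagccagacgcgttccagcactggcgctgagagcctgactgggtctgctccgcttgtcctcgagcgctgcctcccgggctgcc
Ece1 (chr5:155360781-155361030, plus strand): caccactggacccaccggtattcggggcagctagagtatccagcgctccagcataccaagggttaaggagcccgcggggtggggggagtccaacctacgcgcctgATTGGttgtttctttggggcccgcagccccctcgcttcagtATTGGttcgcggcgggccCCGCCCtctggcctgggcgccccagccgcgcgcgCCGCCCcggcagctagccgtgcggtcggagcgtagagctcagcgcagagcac
Npr3 (chr2:62658766-62659015, minus strand): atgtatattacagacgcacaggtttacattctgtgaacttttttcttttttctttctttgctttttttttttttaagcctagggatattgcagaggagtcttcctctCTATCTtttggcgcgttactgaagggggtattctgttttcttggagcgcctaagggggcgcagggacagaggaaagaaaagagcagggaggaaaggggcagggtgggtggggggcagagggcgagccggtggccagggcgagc
The Edn1 window held a GATA match starting 214 bases before the annotated start, an AP-1 match at 186 and a TATA box at 110. In the human gene, a GATA and an AP-1 element near the start are known to drive expression in endothelial cells. The Ece1 window held 2 CCAAT boxes and 2 GC boxes and no TATA box, and the Npr3 window held 1 GATA match, so no motif was in all 3 windows. Among 33469 rat promoter windows of the same length, 12.9% held this TATA box, 5.92% an AP-1 match, 27% a GATA match, 34% a CCAAT box and 30.5% a GC box. A match describes these letters and not a site that is used.

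The arrays were similar in scale, with medians of 4.11 to 4.16, and the correlation of same-group arrays was 0.989 to 0.997. The podocyte marker Nphs1, which encodes nephrin, read 12.10 to 12.65 in the Dahl rats and 11.84 to 12.26 in the SHR rats, and the endothelial marker Pecam1 read 9.18 to 9.99 in the Dahl rats and 8.64 to 9.29 in the SHR rats, so markers of both glomerular cell types were high in every sample. Marker levels differed between the strains. The mean log2 value of 9 podocyte markers was 10.95 to 11.50 in Dahl rats and 10.43 to 10.89 in SHR rats, that of 12 endothelial markers 8.95 to 9.53 in Dahl rats and 8.48 to 8.84 in SHR rats, and that of 11 mesangial and smooth muscle markers 7.23 to 7.54 in Dahl rats and 6.39 to 6.58 in SHR rats. None of these 3 ranges overlapped between the strains. The mean of 14 proximal tubule markers was 9.66 to 11.62 in Dahl rats and 11.72 to 12.20 in SHR rats, and the lowest value belonged to Dahl 6 weeks replicate 2, which stands apart from the other 3 Dahl rats (11.31 to 11.62). In glomerular RNA, fewer cells of a type and less RNA per cell cannot be told apart, and the part of these markers in the differences below was not tested.

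With both ages pooled, Npr3 stood 1.97-fold and Ece1 1.58-fold higher in glomeruli of Dahl rats than in those of SHR rats. Edn1, Npr1 and Npr2 did not pass the test, at 1.39-fold, 1.07-fold and 1.14-fold. Thus 2 of the 5 members passed, both higher (limma, adjusted p under 0.05 over all probe sets). Of all probe sets, 34.7% passed in this comparison, 10.6% higher and 24.2% lower. Among genes whose mean log2 value was at least 5, as it was for all 5 members, 19.5% were higher and 13% lower. The count of 2 in 5 is therefore no result about the members as a group. At 4 weeks only Npr3 passed, as higher (12% of all probe sets passed, 5.63% as higher), and at 6 weeks none of the 5 did (3.28%), although Ece1 had its largest difference at that age. With no adjustment, 1 of the 5 (Ece1) was under 0.05 at 6 weeks by limma. The share of all probe sets under 0.05 with no adjustment was not counted.

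**Figure D1:**
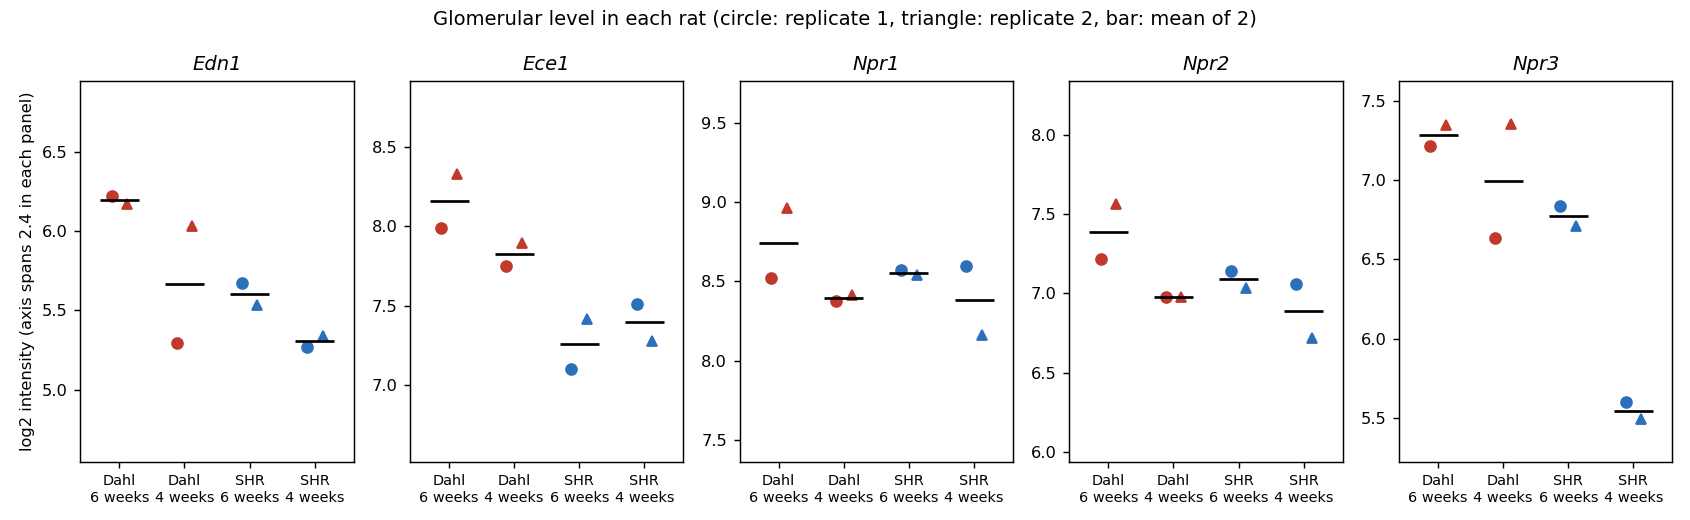
Log2 intensity (vertical axis) of the 5 measured genes in each rat, with groups along the horizontal axis, circles for replicate 1, triangles for replicate 2 and bars for the mean of 2. All 4 Dahl values of Ece1 (7.75 to 8.33) lie above all 4 SHR values (7.10 to 7.51), and Npr3 is lowest in the SHR 4 weeks rats (5.60 and 5.49).

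Edn1 encodes the precursor of endothelin-1, the main endothelin of vessels and kidney. It read 6.22 and 6.17 in Dahl rats at 6 weeks and 5.30 and 6.03 in Dahl rats at 4 weeks. In SHR rats it read 5.67 and 5.54 at 6 weeks and 5.27 and 5.34 at 4 weeks. The 6-week strains did not overlap. At 4 weeks 1 Dahl rat lay among the SHR rats and the other stood 0.69 above the higher of them. With 2 rats against 2, here and below, no overlap often arises by chance. Its share over all probe sets within an age was not counted. The difference over both ages was 0.47 on the log2 scale (standard error 0.17, 95% interval 0.035 to 0.91, adjusted p = 0.0797 from limma), with means of 5.93 ± 0.43 in Dahl rats and 5.45 ± 0.18 in SHR rats (SD, n = 4 each). It was 0.59 at 6 weeks and 0.36 at 4 weeks (adjusted p = 0.156 and 0.305). The 4-week value rested on 1 rat: without Dahl 4 weeks replicate 2 it was -0.010, and without Dahl 4 weeks replicate 1 it was 0.73. Over both ages, leaving out Dahl 4 weeks replicate 1 gave 0.66 and leaving out Dahl 4 weeks replicate 2 gave 0.29. Either fit leaves 1 rat in that group. The gap between its 2 rats (5.30 and 6.03) then no longer enters the spread, so the tests of these fits cannot be set beside that of all arrays.

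Ece1, the enzyme that activates endothelin, was the only member in which the strains did not overlap over both ages. The lowest Dahl value exceeded the highest SHR value, which held for 8.15% of all probe sets. Its level was 7.99 and 8.33 in Dahl rats at 6 weeks and 7.75 and 7.90 at 4 weeks, against 7.10 and 7.42 in SHR rats at 6 weeks and 7.51 and 7.28 at 4 weeks. The means were 7.99 ± 0.25 in Dahl rats and 7.33 ± 0.18 in SHR rats (SD, n = 4 each), 0.66 apart (limma standard error 0.12, adjusted p = 0.0242). An exact two-sided permutation test of 4 against 4 rats gave p = 0.0286, the smallest p it allows. Every probe set whose strains do not overlap gets this p, so it adds nothing to the lack of overlap given above. At 6 weeks the strains were 0.90 apart (1.87-fold, 95% interval 0.45 to 1.35, adjusted p = 0.0644). The 4-week value was 0.43 (1.34-fold, adjusted p = 0.146), and the test of the change between ages gave 0.48 (standard error 0.25, adjusted p = 0.625). The call over both ages was lost with 6 of the 8 arrays left out singly. These were the fits that left out Dahl 6 weeks replicate 2 (0.58, adjusted p = 0.0553), Dahl 4 weeks replicate 1 (0.70, adjusted p = 0.0521), Dahl 4 weeks replicate 2 (0.63, adjusted p = 0.0774), SHR 6 weeks replicate 1 (0.58, adjusted p = 0.0692), SHR 6 weeks replicate 2 (0.74, adjusted p = 0.0529) or SHR 4 weeks replicate 2 (0.61, adjusted p = 0.0685).

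Npr3, the clearance receptor, had the largest strain difference of the 5 genes over both ages, and it passed the test at 4 weeks and not at 6 weeks. Dahl rats read 7.21 and 7.35 at 6 weeks and 6.63 and 7.35 at 4 weeks. SHR rats read 6.83 and 6.71 at 6 weeks and 5.60 and 5.49 at 4 weeks. The strains did not overlap within either age, at 2 rats against 2. The lower Dahl rat of 4 weeks, however, lay below both SHR rats of 6 weeks. The difference over both ages was 0.98 (standard error 0.17, adjusted p = 0.0214 from limma), with means of 7.14 ± 0.34 in Dahl rats and 6.16 ± 0.71 in SHR rats (SD, n = 4 each). An exact two-sided permutation test that ignores age gave p = 0.0857. At 4 weeks the difference was 1.45 (2.73-fold, standard error 0.24, adjusted p = 0.0302), and at 6 weeks it was 0.51 (1.42-fold, 95% interval -0.11 to 1.13, adjusted p = 0.192). The change of the strain difference between ages was -0.94 (standard error 0.34, 95% interval -1.82 to -0.060, adjusted p = 0.416 from limma), which did not pass across all probe sets (0.519% did). With no adjustment Npr3 was the 1 member under 0.05 in this test (share of all probe sets not counted).

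The Npr3 call over both ages was lost without Dahl 6 weeks replicate 2 (0.95, adjusted p = 0.0606), SHR 6 weeks replicate 1 (1.01, adjusted p = 0.0667), SHR 6 weeks replicate 2 (0.95, adjusted p = 0.0746) or SHR 4 weeks replicate 2 (0.95, adjusted p = 0.0647). The call at 4 weeks was lost without SHR 6 weeks replicate 1 or 2 (1.45, adjusted p = 0.0731 for each), which do not enter the 4-week difference itself, and without SHR 4 weeks replicate 1 (adjusted p = 0.081) or replicate 2 (1.39, adjusted p = 0.114). The difference itself stayed between 1.09 and 1.81 at 4 weeks whichever array was left out. In the glomerulus this receptor is known from podocytes. Of the 9 podocyte markers, 4 were higher in Dahl rats over both ages (median difference 0.47) and 3 at 4 weeks (median 0.33), while no podocyte marker was lower. Of all probe sets, 10.6% were higher over both ages and 5.63% at 4 weeks. Of genes with a mean of at least 5, 19.5% were higher over both ages. The median of all genes was -0.048 over both ages and -0.045 at 4 weeks. The mean levels of the podocyte, mesangial and smooth muscle, leukocyte and erythroid markers were lowest in the SHR 4 weeks rats, as Npr3 was. Podocyte markers averaged 10.64 and 10.43 in these rats and 10.87 to 11.50 in the others. Mesangial and smooth muscle markers averaged 6.40 and 6.39 in these rats and 6.51 to 7.54 in the others. The pattern of the means did not hold for each marker. Cd3e, of the leukocyte list, read 3.73 and 3.71 in SHR rats at 4 weeks and 3.22 to 3.38 in Dahl rats. Alas2, of the erythroid list, read 2.49 and 2.52 in SHR rats at 4 weeks and 2.43 to 4.28 in Dahl rats. The mean of 10 leukocyte markers, 3 of them under 3 on every array, was 5.35 to 5.98 in Dahl rats and 5.53 to 5.60 in SHR rats at 6 weeks, against 4.70 and 4.56 in SHR rats at 4 weeks. At 4 weeks 4 of these 10 were higher and 1 lower in Dahl rats (median 0.47). Of all probe sets at that age, 12% passed in either direction and 5.63% as higher. The erythroid gene Hbb, a beta globin, read 9.60 and 10.20 in Dahl rats at 4 weeks and 6.85 and 7.57 in SHR rats at 4 weeks, a difference of 2.69 that did not pass (adjusted p = 0.0883). The mean of the 2 measured erythroid markers was 5.98 to 7.91 in Dahl rats and 4.67 to 7.10 in SHR rats. The part of these markers in the Npr3 result was not tested.

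Npr1, the receptor of atrial and brain natriuretic peptide, differed little between the strains. It read 8.52 and 8.96 in Dahl rats at 6 weeks and 8.37 and 8.41 at 4 weeks, against 8.57 and 8.54 in SHR rats at 6 weeks and 8.60 and 8.16 at 4 weeks. The strains overlapped at both ages, and the difference over both ages was 0.10 (standard error 0.14, 95% interval -0.26 to 0.47, adjusted p = 0.574 from limma). The interval leaves room for a Dahl level up to 0.47 higher or 0.26 lower. The sign of the 4-week difference (0.015) flipped to -0.030 after quantile normalization and -0.031 after median centring.

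Npr2, the receptor of C-type natriuretic peptide, read 7.22 and 7.56 in Dahl rats at 6 weeks and 6.98 and 6.98 at 4 weeks. SHR rats read 7.14 and 7.03 at 6 weeks and 7.06 and 6.72 at 4 weeks. The 6-week strains did not overlap and the 4-week strains did, each at 2 rats against 2. The difference over both ages was 0.19 (standard error 0.11, 95% interval -0.10 to 0.49, adjusted p = 0.212 from limma). Dahl 6 weeks replicate 2, the array with the lowest tubule markers, had the highest value of Ece1, Npr1 and Npr2, and without it the differences were 0.58, -0.0091 and 0.11.

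**Figure D2:**
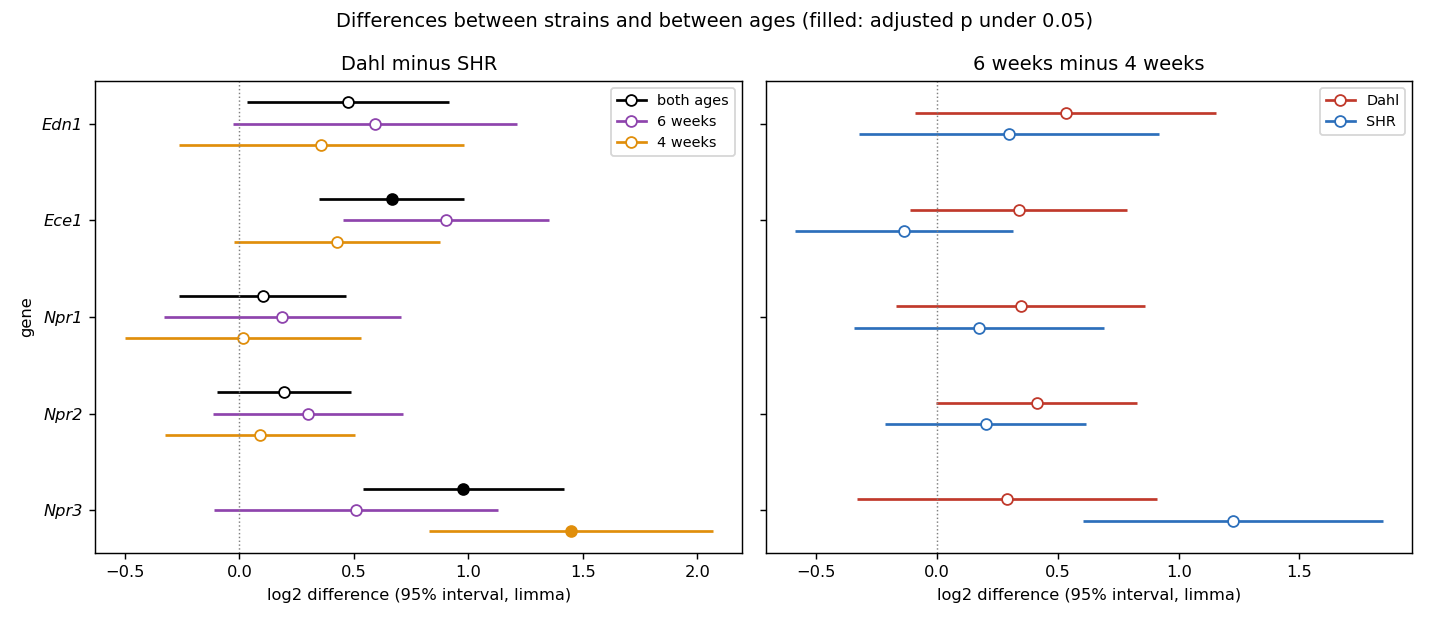
Log2 differences (horizontal axis) of the 5 genes with 95% intervals from limma, Dahl minus SHR on the left and 6 weeks minus 4 weeks on the right. Filled points passed at an adjusted p of 0.05: Ece1 (0.66) and Npr3 (0.98) over both ages and Npr3 at 4 weeks (1.45).

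The next comparison asked whether the natriuretic peptide receptors shifted between the strains by different amounts. Taken within each array, Npr3 minus Npr1 was -1.31 and -1.62 in Dahl rats at 6 weeks and -1.74 and -1.06 at 4 weeks, against -1.74 and -1.83 in SHR rats at 6 weeks and -3.00 and -2.67 at 4 weeks. This log2 difference of 2 probe sets has no meaning as a ratio of transcripts. In its shift between strains a constant factor of each probe set cancels, but a difference in how strongly the 2 respond does not. Such a difference was not tested. It averaged -1.43 ± 0.31 in Dahl rats and -2.31 ± 0.62 in SHR rats (SD, n = 4 each), a shift of 0.88. The strains did not overlap within either age, again at 2 rats against 2. An exact two-sided permutation test of 4 against 4 rats, which ignores age, gave p = 0.0571 (p = 0.0856 adjusted over the 3 receptor pairs). The smallest p it allows is 0.0286, so a single pair could not pass after this adjustment. For Npr3 minus Npr2 the shift was 0.78 (exact p = 0.0857, and 0.0857 adjusted), and for Npr1 minus Npr2 it was -0.092 (exact p = 0.0571, and 0.0856 adjusted). These pairs were chosen after the values had been seen. Npr1 minus Npr2 ranged from 1.30 to 1.44 in Dahl rats and from 1.43 to 1.54 in SHR rats.

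Between 6 and 4 weeks of age, no member passed in either strain. In Dahl rats the differences of 6 minus 4 weeks were 0.29 (Npr3) to 0.53 (Edn1), with adjusted p of 0.576 to 0.844 (0.0805% of all probe sets passed). For Edn1 the 6-week Dahl rats (6.22 and 6.17) lay above the 4-week Dahl rats (5.30 and 6.03), a difference of 0.53 with a 95% interval of -0.090 to 1.15. In SHR rats, Npr3 had a difference of 1.23 (2.34-fold, standard error 0.24, 95% interval 0.60 to 1.85), with 6.83 and 6.71 at 6 weeks against 5.60 and 5.49 at 4 weeks. Its adjusted p was 0.0877 from limma (2.42% of all probe sets passed with adjustment in SHR rats). With no adjustment it was the 1 member under 0.05 in SHR rats, against 0 in Dahl rats (share of all probe sets not counted). Leaving out Dahl 4 weeks replicate 1 or 2, which are not part of this difference, left it at 1.23 and changed only the test around it. Of the 10 leukocyte markers, 4 were higher and 0 lower at 6 weeks in SHR rats (median 0.67, and -0.0023 over all genes). Of the 9 podocyte markers 1 was higher and 0 lower (median 0.32). Of the 11 mesangial and smooth muscle markers 1 was higher and 0 lower (median 0.27). Of the 12 endothelial markers 0 passed (median 0.18). Hbb had a difference of 3.26 (adjusted p = 0.135 from limma). The part of these markers in the Npr3 difference was not tested. The other 4 members differed in SHR rats by -0.14 (Ece1) to 0.30 (Edn1), with adjusted p of 0.692 to 0.867.

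**Figure D3:**
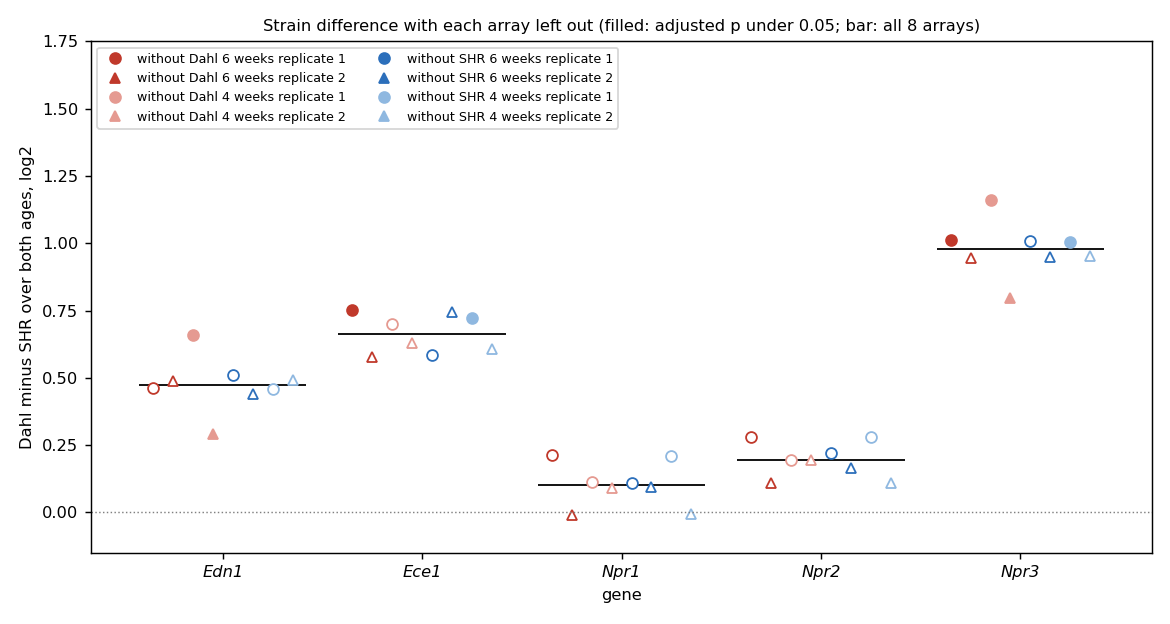
Strain difference over both ages (vertical axis, log2) for each gene when 1 of the 8 arrays was left out, with the bar at the value from all arrays and filled symbols at an adjusted p under 0.05. The differences of Npr3 stay between 0.80 and 1.16, those of Ece1 between 0.58 and 0.75 and those of Edn1 between 0.29 and 0.66. Each fit leaves 1 rat in a group, which then adds nothing to the spread, so a filled symbol need not mean a firmer difference.

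The other ligands that were measured, Edn2, Nppa, Nppb and Nppc, were at the bottom of the scale. Nppa and Nppb, the cardiac atrial and brain natriuretic peptides, read 2.34 to 2.54 and 2.55 to 2.63 in Dahl rats, against 2.43 to 2.48 and 2.70 to 2.79 in SHR rats. Nppc, the C-type peptide, read 2.25 to 2.29 in Dahl rats and 2.33 to 2.34 in SHR rats, and Edn2, a further endothelin, 2.12 to 2.13 in Dahl rats and 2.16 to 2.19 in SHR rats. In all, 30.9% of probe sets lay under 3 on every array, so these values give no measured level of the ligands. Nppb (-0.14) and Nppc (-0.059) passed as lower, where the median difference of all probe sets was -0.053, which lies close to the difference of Nppc.

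Of 21 other measured genes of the endothelin pathway, 2 were higher and 3 lower in Dahl rats over both ages, where 10.6% of all probe sets were higher and 24.2% lower. Their median difference was 0.096, and that of all genes -0.048. Mme, which encodes neprilysin, a protease that degrades both endothelin and natriuretic peptides, was higher by 0.48 (adjusted p = 0.0395 from limma). It read 7.92 and 8.08 in Dahl rats at 6 weeks and 7.53 and 7.99 at 4 weeks, against 7.55 and 7.40 in SHR rats at 6 weeks and 7.27 and 7.38 at 4 weeks. Plcb4, a phospholipase C of the pathway below G-protein-coupled receptors, was higher by 0.39 over both ages, but its direction was not the same at each age. It read 8.65 and 8.93 in Dahl rats against 7.70 and 7.87 in SHR rats at 6 weeks (1.00, adjusted p = 0.034), and 7.99 and 8.14 in Dahl rats against 8.34 and 8.22 in SHR rats at 4 weeks (-0.22, adjusted p = 0.238). The change between ages did not pass (adjusted p = 0.0862). Ece2, a second converting enzyme, was lower by 0.45 (3.68 to 3.91 in Dahl rats and 4.11 to 4.47 in SHR rats, adjusted p = 0.034), while its dimmer probe set differed by -0.0024. The other 2 lower genes, Ecel1 (-0.063) and Kel (-0.17), lay near the bottom of the scale. Rgs5, a regulator of G-protein signaling that is also a marker in the mesangial and smooth muscle list, had a difference of 1.02 that did not pass (adjusted p = 0.0591). Without Dahl 6 weeks replicate 2 none of the 21 passed in either direction, and over all arrays left out in turn 0 to 7 were higher and 0 to 3 lower. Quantile normalization gave 1 higher and 1 lower.

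Of 18 other measured genes of the natriuretic peptide pathway, 3 were higher and 6 lower, beside 10.6% higher and 24.2% lower among all probe sets. The median of the 18 was -0.058, and that of all genes -0.048. Among the 10 with a mean of at least 3, the median was -0.14, against 0.011 for all genes at that level. Of these 10, 3 were higher and 2 lower. The higher ones were Pde2a, a phosphodiesterase that breaks down cyclic GMP and cyclic AMP (0.94, adjusted p = 0.0257 from limma), Kcnma1, the pore of a large-conductance potassium channel (0.87), and Vasp, an actin-associated protein phosphorylated by the cyclic GMP-dependent kinase (0.57). Pde2a read 8.23 and 8.76 in Dahl rats at 6 weeks and 7.94 and 8.24 at 4 weeks, against 7.18 and 7.42 in SHR rats at 6 weeks and 7.63 and 7.16 at 4 weeks, with no overlap. Kcnma1 read 3.25 to 4.48 in Dahl rats and no higher than 3.25 in SHR rats, and its 2 dimmer probe sets were under 3 on every array. Of the 6 lower genes, Nppb, Nppc, Pde3a and Pde5a were under 3 on every array, and Ide (-0.34), a degrading protease, and Pde9a (-0.38), a phosphodiesterase of cyclic GMP, were well above it. The lower call of Pde9a came from 4 weeks, where it read 6.48 and 6.89 in Dahl rats against 7.76 and 7.86 in SHR rats (-1.12, adjusted p = 0.0181). At 6 weeks both Dahl rats (7.01 and 7.12) lay above both SHR rats (6.72 and 6.67), a difference of 0.37 (adjusted p = 0.144), and the change between ages did not pass (adjusted p = 0.0801). For Ide, the dimmer probe sets differed by 0.33 and -0.066. Furin, a protease that can process natriuretic peptide precursors, differed by -0.32 (adjusted p = 0.056), and the cyclic GMP-dependent kinase gene Prkg2 by -0.47 (adjusted p = 0.218). Corin and Prkg1 were not analysed here. No gene of this list passed in either direction without Dahl 6 weeks replicate 2, SHR 6 weeks replicate 1, SHR 6 weeks replicate 2 or SHR 4 weeks replicate 2, and over all arrays left out in turn 0 to 2 were higher and 0 to 7 lower. Quantile normalization gave 1 higher and 2 lower.

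Genes of the other route to cyclic GMP, through nitric oxide and soluble guanylate cyclase, included 13 that were measured, of which 4 were higher and 2 lower, again beside 10.6% and 24.2% of all probe sets. The median was 0.12, and -0.048 over all genes. Among the 8 with a mean of at least 3, 4 were higher and 0 lower. The share of all genes at that level was not counted. Among all genes with a mean of at least 5, 19.5% were higher and 13% lower. Soluble guanylate cyclase is a dimer of an alpha and a beta subunit. The beta subunit gene Gucy1b1 was higher by 1.43 (2.7-fold, standard error 0.15, adjusted p = 0.00879 from limma), with 7.67 and 7.71 in Dahl rats at 6 weeks and 7.02 and 7.59 at 4 weeks, against 6.50 and 6.39 in SHR rats at 6 weeks and 5.54 and 5.83 at 4 weeks. Its second probe set differed by 2.17. The alpha subunit gene Gucy1a1 was higher by 0.75 (1.68-fold, adjusted p = 0.0193), and Nos3, the endothelial nitric oxide synthase, by 1.28 (adjusted p = 0.0243). Cav1, the caveolin that binds this synthase, was higher by 0.91 (adjusted p = 0.023), and its other probe sets by 1.57 and 1.71. None of these 4 overlapped between the strains on the probe set used. They are the genes of this list that had passed as higher, and 8.15% of all probe sets had every Dahl rat above every SHR rat. The lower genes, Gucy1a2 (-0.053) and Gucy1b2 (-0.070), were under 3 on every array. Nos3 is itself 1 of the 12 endothelial markers. With Nos3 counted, 6 of the 12 were higher, with a median of 0.36, beside 10.6% of all probe sets. Without Dahl 6 weeks replicate 2, 3 of the 13 were higher and none was lower. With each array left out in turn the counts were 1 to 5 higher and 0 to 2 lower, with 1 higher without SHR 4 weeks replicate 2, SHR 6 weeks replicate 1 or SHR 6 weeks replicate 2. Quantile normalization gave 4 higher and 0 lower.

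**Figure D4:**
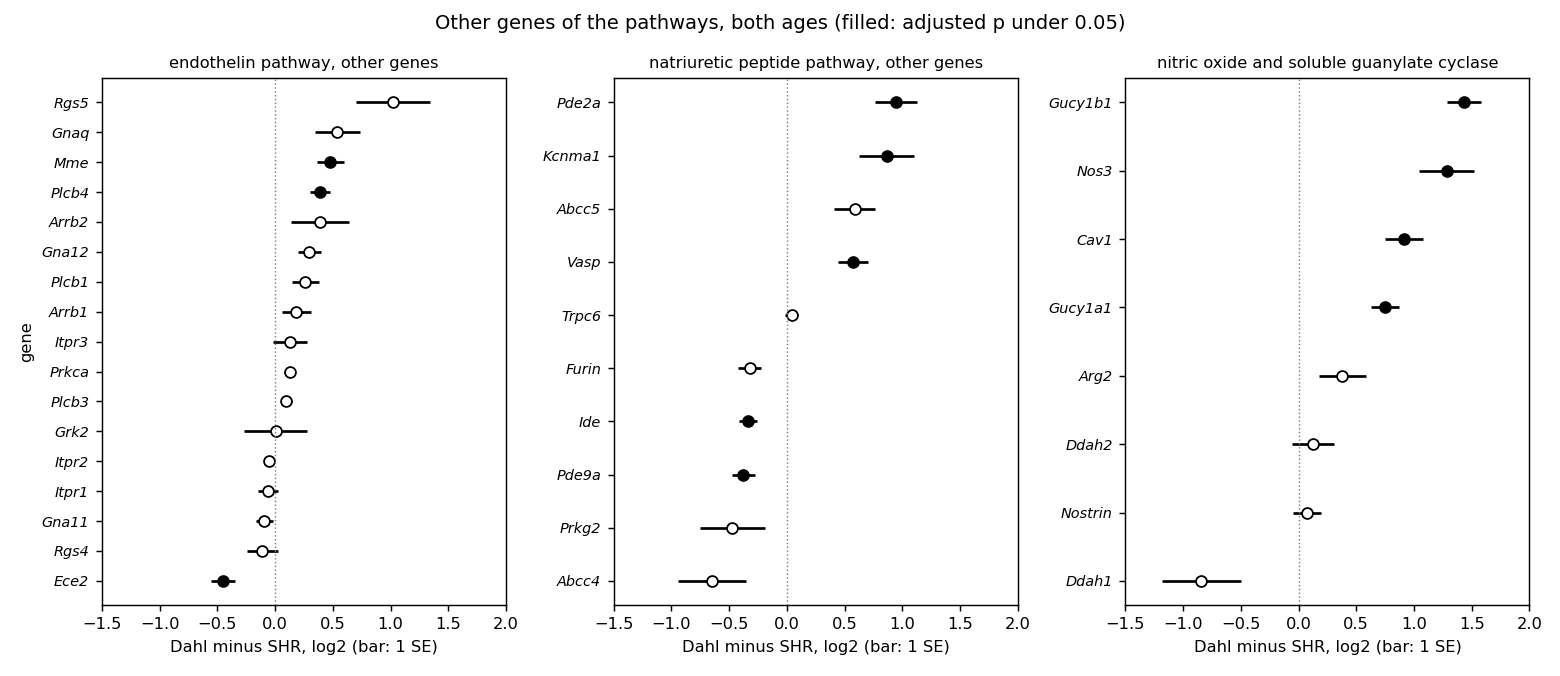
Dahl minus SHR over both ages (horizontal axis, log2, with 1 standard error to each side) for the other pathway genes whose mean log2 value was at least 3, by list. Filled points passed at an adjusted p under 0.05, and Gucy1b1 (1.43), Nos3 (1.28) and Pde2a (0.94) lie among the highest of their lists.

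For the members whose level varied by a standard deviation of at least 0.25 over the 8 arrays, the genes of most similar pattern were sought among 8461 genes with a mean of at least 5. Ece1 was followed most closely by Hk1, a hexokinase (Pearson r = 0.99), Pde2a (r = 0.988), the phosphodiesterase named above, and Inf2, a formin of podocytes (r = 0.976). For Npr3 the closest were Gpd2, a mitochondrial glycerol phosphate dehydrogenase (r = 0.993), Ugt8 (r = 0.991) and Tmem35a (r = 0.989). For Edn1 they were Jak2, a tyrosine kinase (r = 0.984), Sspn (r = 0.968) and Ubl3 (r = 0.96). These are the best of 8461 correlations over 8 arrays that share strain and age, and they describe likeness of pattern alone.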

How the data were processed

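Total RNA of isolated glomeruli from 8 male rats was hybridized to Affymetrix rat genome arrays. The deposited log2 intensities had been normalized and summarized per probe set by the authors. RMA and GCRMA, both of which correct background, appear in their processing notes without versions, and the sources do not say which one gave the deposited values. After 57 control probe sets were left out, 31042 were tested. The platform annotation named 1 gene for 20826, several for 436 (not named here) and none for 9780, and a gene is represented by its probe set with the highest mean. The 4 group means were modelled in limma 3.58.1 (R 4.3.3), with 4 residual and 0.921 prior degrees of freedom and Benjamini-Hochberg adjustment over all probe sets at 0.05. The script was tested on simulated data. Groups and replicates came from the sample titles, which call the 2 rats of a group biological replicates. The number of arrays limits the precision, and batches were not tested. The members and lists were chosen with earlier results of these data known. The genes named are the 5 members, the ligands, processing enzymes and cyclic GMP genes of a written rule, and each list gene that passed over both ages. Rgs5, the bound of 3 for the bottom of the scale and the receptor pairs were chosen after the values were seen. The alternatives tried were quantile normalization, a robust fit with an intensity trend, leaving out each array, median centring, a block for replicate number, only the probe sets above the median mean, a threshold of 0.01, the probe set with the largest SD, strain alone, the arrays of 1 age, the methods' t-test and an exact permutation test. Promoter windows come from RefSeq (GRCr8).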

Additional observations from a re-analysis of the deposited data

Results flagged for a closer look

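Npr1 in the 4 SHR rats had 1 value apart from the rest. SHR 4 weeks replicate 2 read 8.16 while the other SHR rats read 8.54 to 8.60, so the gap took up 0.862 of the whole range. These 4 rats are of 2 ages. Of 10 sets of 4 rats examined (5 genes in 2 strains), this was the 1 that stood out, and chance gives about 1 in 20. Without that array the difference in Npr1 was -0.0071 over both ages (adjusted p = 0.968 from limma), against 0.10 with it.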

How the results depend on the processing

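Over both ages 2 of 5 members passed. That count was 0 at a threshold of 0.01, 1 with strain alone and 1 with the methods' t-test after Benjamini-Hochberg adjustment, which lost Npr3, and 0 to 2 with an array left out. At 4 weeks it was 1, and 0 with the replicate block, at a threshold of 0.01 and with only the 4-week arrays, and 0 to 2 with an array left out. At 6 weeks it was 0, and 1 (Ece1, adjusted p = 0.0213 and 0.03) with an intensity trend and with the brighter probe sets, and 0 to 1 with an array left out. For age in SHR it was 0, and 1 (Npr3, adjusted p = 0.0243) with the brighter probe sets, and 0 to 1 with an array left out. For age in Dahl and for the change of the strain difference it stayed at 0 in every setting run. Each member has 1 probe set, so the choice among probe sets could not change it. Each fit with an array left out keeps 1 rat in 1 group, which then adds nothing to the spread. The cause of these changes was not tested.

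The number of all probe sets called over both ages, 10787, was 4740 after quantile normalization (2261 higher and 2479 lower, or 47.7% higher against 30.4%), 4776 in the brighter probe sets, where fewer were tested, 5598 with the replicate block, 1050 at 0.01, and 2286 to 11471 with an array left out. At 4 weeks 3738 became 10134 with an intensity trend, 2028 with the block, 401 at 0.01, 761 with only that age, and 768 to 3905 with an array left out. At 6 weeks 1017 became 8488 with the trend, 339 with the block, 65 at 0.01, 2 with only that age, and 63 to 3352 with an array left out. For age in Dahl 25 became 47 (brighter), 3 (block) and 2 (0.01), with 0 to 1043 for an array left out. For age in SHR 751 became 1205 (brighter), 360 (block) and 83 (0.01), with 64 to 940. For the change of the strain difference 161 became 31 (block) and 10 (0.01), with 7 to 540. The sample titles do not say whether rats of the same replicate number shared a litter or day. Deviations of same-numbered arrays correlated at -0.225 to 0.236, which cannot settle it. The block cost Npr3 its 4-week call (adjusted p = 0.0551) and no other member's call.

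Signs flipped only for values that had not passed. Besides Npr1 at 4 weeks after quantile normalization (-0.030) and median centring (-0.031), this happened with an array left out. The lowest and highest values were then, for Npr1, -0.0091 and 0.21 over both ages, -0.20 and 0.23 at 4 weeks, -0.0335 and 0.41 at 6 weeks, -0.044 and 0.39 by age in SHR, and -0.049 and 0.39 in the change between ages. For Edn1 they were -0.010 and 0.73 at 4 weeks and -0.13 and 0.60 in the change between ages. For Npr2 at 4 weeks they were -0.084 and 0.26, for Npr3 by age in Dahl -0.073 and 0.65, and for Ece1 by age in SHR -0.30 and 0.022.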
